A study of Mus musculus with 60 samples.

Results

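Cdyl2, its paralog Cdyl and 4 genes beside Cdyl2 on mouse chromosome 8 (Dynlrb2, Cmc2, Cenpn and Atmin) were followed in nascent RNA of mouse embryonic stem cells after knockdown of the nuclear receptor gene Esrrb. These 6 genes were chosen by name from 24260 gene symbols, and Cdyl2 is one of the study's 4C viewpoints. They were represented by 7 transcript rows, and the transcript with the highest RPKM (a read count divided by transcript length and library depth) summed over the libraries stood for each gene. Of the 6 genes, 4 reached the expression minimum of the test, a mean of 0.5 RPKM, and 2 (Dynlrb2 and Cmc2) did not.

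The cells were E14, an established mouse embryonic stem cell line grown on gelatin with serum and LIF. The siEsrrb group held 2 libraries of cells that had received siRNA to Esrrb, and the siCtrl group 2 libraries of cells that had received control siRNA, all taken 72 h after transfection. RNA came from the chromatin pellet, where unfinished transcripts are abundant, so intronic and exonic reads are both counted. A knockdown by siRNA is partial and acts on a whole culture, in which fewer cells expressing a gene and less RNA per cell cannot be told apart. Whether the libraries of a group are separate cultures is not labelled, and nascent RNA-seq is named as an exception where the series describes its biological replicates. The p-values below therefore reflect library-to-library spread, which may be technical. The 4C libraries of the Cdyl2 viewpoint were not analysed here.

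The depth behind the RPKM was 22363943 and 61857158 reads in siEsrrb replicates 1 and 2, against 24764879 and 68002338 reads in siCtrl replicates 1 and 2. Depth therefore went with the replicate number, and fold changes are given for each number as well as pooled. Esrrb itself (NM_011934) had 1.50 and 2.08 scaled RPKM in siEsrrb, against 3.39 and 3.10 in siCtrl, which is 44.2% of control in replicate 1 and 67.0% in replicate 2. All 7 embryonic stem cell markers looked at were above the expression minimum, and their summed level was 89.0 and 74.1 scaled RPKM in siEsrrb, against 86.8 and 80.0 in siCtrl. None of 7 fibroblast feeder markers and none of 6 primitive endoderm markers reached that minimum. The feeder markers summed to 0.305 and 0.677 scaled RPKM in siEsrrb, against 0.187 and 0.504 in siCtrl, and 1 of them was at 0 in all 4 libraries. The primitive endoderm markers summed to 0.153 and 0.142 scaled RPKM in siEsrrb, against 0.154 and 0.205 in siCtrl, each under 0.1 in every library.

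Esrrb is an orphan nuclear receptor of the naive pluripotency network that binds enhancers and promoters. CDYL and CDYL2 are paralogous proteins with an N-terminal chromodomain, a fold that reads methylated lysines of histone H3, and a C-terminal domain related to enoyl-CoA hydratases. CDYL is best known as a corepressor that bridges REST, the H3K9 methyltransferases EHMT1 and EHMT2 and Polycomb repressive complex 2. Of the neighbours, Dynlrb2 encodes a roadblock-type light chain of dynein, Cmc2 a mitochondrial protein needed for cytochrome c oxidase assembly, Cenpn a reader of the CENP-A nucleosome at centromeres, and Atmin a zinc-finger factor that interacts with the kinase ATM.

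RefSeq (GRCm38.p6) start windows were found for all members but Cdyl2, and 4 of these are shown, because they show how the counted models of Cdyl, Cmc2 and Cenpn lie against each other. Each is the 250 bases before an annotated start, 5′ to 3′, with CpG dinucleotides in capitals. Coordinates are those of GRCm38.p6, not of the mm9 build behind the read counts. Cdyl has a far upstream start and downstream starts, and the first pair of lines shows the upstream start (chr13:35659612-35659861, plus strand) and the downstream start of the counted short transcript (chr13:35741152-35741401, plus strand). The other pair shows Cenpn (chr8:116921490-116921739, plus strand) and Cmc2 (chr8:116921437-116921686, minus strand), which start in opposite directions 304 bases apart and share 197 bases of these windows.
Cdyl upstream start: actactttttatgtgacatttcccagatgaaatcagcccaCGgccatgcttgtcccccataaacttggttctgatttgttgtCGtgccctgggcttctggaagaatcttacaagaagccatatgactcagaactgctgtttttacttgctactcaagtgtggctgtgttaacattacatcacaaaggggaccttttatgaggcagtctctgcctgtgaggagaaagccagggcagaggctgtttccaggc
Cdyl downstream start: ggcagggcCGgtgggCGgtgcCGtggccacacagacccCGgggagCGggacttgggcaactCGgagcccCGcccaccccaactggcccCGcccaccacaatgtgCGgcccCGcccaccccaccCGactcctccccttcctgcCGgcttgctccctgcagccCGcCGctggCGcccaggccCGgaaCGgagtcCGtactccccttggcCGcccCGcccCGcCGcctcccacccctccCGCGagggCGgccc
Cenpn: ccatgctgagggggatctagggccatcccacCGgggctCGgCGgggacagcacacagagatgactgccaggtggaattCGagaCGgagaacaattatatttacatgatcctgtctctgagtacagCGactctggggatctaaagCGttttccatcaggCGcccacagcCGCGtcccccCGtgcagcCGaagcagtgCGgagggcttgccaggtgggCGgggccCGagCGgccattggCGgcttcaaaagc
Cmc2: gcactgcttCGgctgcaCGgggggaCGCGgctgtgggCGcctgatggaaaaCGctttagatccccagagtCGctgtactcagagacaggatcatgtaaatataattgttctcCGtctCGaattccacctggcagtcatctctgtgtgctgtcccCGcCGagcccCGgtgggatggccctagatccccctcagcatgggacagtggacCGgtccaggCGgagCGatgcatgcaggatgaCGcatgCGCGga

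The 2 Cdyl windows are unlike in composition. The upstream window has a GC content of 46.8% and 2 CpG, and the downstream window 78.4% and 25 CpG. Among all mouse start windows of that length, 29.8% have a lower GC content than the upstream window and 98.1% a lower one than the downstream window. The Cenpn and Cmc2 windows lie between these, with 61.6% and 60.4% GC and 17 and 18 CpG. The extended Esrrb element TCAAGGTCA and its core AAGGTCA were searched on both strands of the 7 windows of the members, the 50 bases after each start included, and every TCAAGGTCA also holds an AAGGTCA. Neither was found in any of the 7 windows, which belong to Cdyl, Cmc2, Cenpn, Atmin and Dynlrb2; Cdyl2 was not searched, so nothing is said of it here. For comparison, 0.423% of 32851 mouse start windows hold TCAAGGTCA and 4.72% hold AAGGTCA.

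Cdyl2 had 0.371 and 0.562 scaled RPKM in siEsrrb replicates 1 and 2, against 1.46 and 1.21 in siCtrl replicates 1 and 2 (NM_029441, counted over a model of 164268 bases that includes the introns). Both siEsrrb libraries lay below both controls with a wide gap between the groups. The values came from 1255 and 6021 reads in siEsrrb and 5671 and 14670 reads in siCtrl. The means were 0.467 ± 0.134 scaled RPKM in siEsrrb and 1.34 ± 0.176 in siCtrl (SD, n = 2 each), so that the siEsrrb mean was 34.9% of the control mean. A noncoding gene, Gm31367, overlaps Cdyl2 in the annotation. Without a stated use of strand, reads of Gm31367 in the overlap cannot be told apart from those of Cdyl2.

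By replicate number, Cdyl2 stood at 25.4% of control in replicate 1 (95% exact interval 23.9 to 27.0) and at 46.3% in replicate 2 (44.9 to 47.7). These intervals cover counting error only. They do not overlap, so the 2 replicates differed in the size of the loss by more than counting error. The nascent RNA of Esrrb was also further below control in replicate 1 than in replicate 2, as given above. Relative to Esrrb in the same library, the scaled RPKM of Cdyl2 was 24.8% and 27.0% in siEsrrb, against 43.1% and 39.1% in siCtrl.

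The fitted log2 fold change of Cdyl2 was -0.93 (SE 0.14) on the log2(scaled RPKM + 0.5) scale, with -1.17 in replicate 1 and -0.69 in replicate 2. That scale understates changes of genes at this level, and the fit on recovered reads with voom, chosen after seeing the data, gave -1.51. The unadjusted limma p was 0.00202 and the adjusted p over all 9758 tested genes 0.247, which misses the threshold of 0.05. In that fit 0% of all tested genes passed the adjusted test and 11.3% had an unadjusted p under 0.05, so 0.247 was also the smallest adjusted p of any gene. The voom fit, made without a replicate block, passed 0 genes as well, with 1815 of 15163 at an unadjusted p under 0.05.

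Among the 9758 tested genes Cdyl2 ranked 65 from the lowest fitted log2 fold change, 92 in replicate 1 and 108 in replicate 2. Thus 0.666% of the tested genes had a fold change as low as that of Cdyl2 or lower. Cdyl2 reached the expression minimum largely through siCtrl, with 1.39 and 1.31 RPKM as deposited, against 0.342 and 0.593 in siEsrrb. Its rank, this share and every count of tested members or listed genes that includes Cdyl2 therefore hold only among genes selected by that minimum. Fitted without the filter on low values, Cdyl2 had the same log2 fold change of -0.93 (limma adjusted p 0.373). The median over all tested genes was -0.0010. Both libraries of siEsrrb were below both of siCtrl for 22% of all tested genes, and for 2 of the 4 tested members, Cdyl2 and Atmin. In either direction the groups did not overlap for 43.8% of all tested genes.

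**Figure D1:**
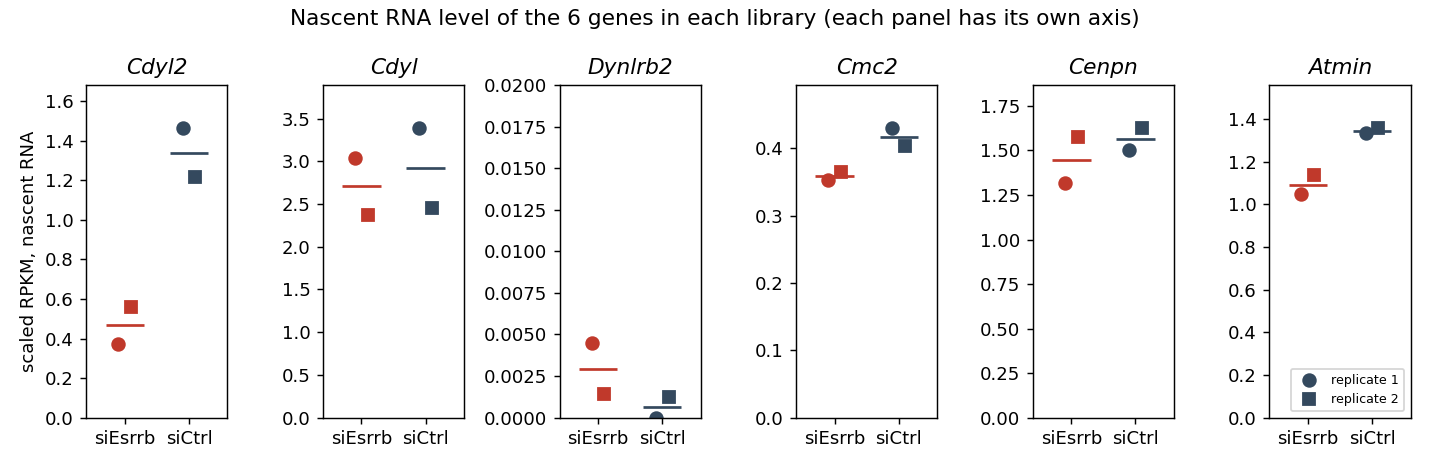
Scaled RPKM of the 6 genes in each nascent RNA library, with siEsrrb left of siCtrl in every panel, circles for replicate 1, squares for replicate 2 and a line at the mean of 2 libraries. Cdyl2 is at 0.371 and 0.562 in siEsrrb and at 1.46 and 1.21 in siCtrl, the widest gap between groups in relative terms, and Dynlrb2 is at or near 0 in all 4 libraries.

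Cdyl, the paralog, was the most abundant of the 6 genes per length in every library. It had 3.04 and 2.38 scaled RPKM in siEsrrb, against 3.39 and 2.45 in siCtrl (NM_001123386, 132663 bases). The groups overlapped, and the libraries of replicate 1 were the higher ones in both. The means were 2.71 ± 0.472 in siEsrrb and 2.92 ± 0.660 in siCtrl (SD, n = 2 each), and the fitted log2 fold change was -0.09 (SE 0.19; limma adjusted p 0.896). By replicate number Cdyl stood at 89.9% of control (interval 87.4 to 92.5) and 96.9% (95.1 to 98.7). Without siCtrl replicate 1 the fitted value was 0.11 and without siEsrrb replicate 2 it was 0.07. Both of these fits leave the groups with unequal replicate numbers, and the pooled direction changed with the libraries kept. Within each replicate number Cdyl was below control.

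Per length, Cdyl2 reached 12.2% and 23.6% of the level of Cdyl in siEsrrb, against 43.2% and 49.5% in siCtrl. The per-library difference in log2(scaled RPKM + 0.5), Cdyl2 minus Cdyl, averaged -1.73 ± 0.41 in siEsrrb and -0.89 ± 0.14 in siCtrl (SD, n = 2 each). The fold change of Cdyl2 was thus lower than that of its paralog by 0.85 on that scale, by 1.04 in replicate 1 and by 0.65 in replicate 2. A two-sided exact permutation test gave p = 0.333, which is the smallest p that 2 against 2 libraries allow, so this difference could not pass a threshold here.

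The files hold a second Cdyl transcript, NM_009881, which starts 81540 bases upstream of the first and otherwise spans it. The difference in reads between them gives the stretch before the downstream start. This stretch held 678 and 1793 reads in siEsrrb, against 672 and 1541 in siCtrl. It was 7.55% and 8.01% of all Cdyl reads in siEsrrb (95% Wilson intervals 7.02 to 8.11 and 7.67 to 8.38), against 5.96% and 6.05% in siCtrl (5.54 to 6.41 and 5.76 to 6.35). Both siEsrrb shares lay above both control shares with no overlap of the counting intervals, and the shares within a group were close to each other.

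The mean share before the downstream start was 7.78 ± 0.331% in siEsrrb and 6.00 ± 0.0624% in siCtrl (SD, n = 2 each), a difference of 1.78 percentage points with an exact permutation p of 0.333, again the smallest possible. As a level, the stretch had 0.404 and 0.337 scaled RPKM in siEsrrb, against 0.349 and 0.257 in siCtrl. Here the groups overlapped (exact permutation p = 0.667). Within each replicate number, however, the level before the downstream start was higher in siEsrrb, and the level from that start on was lower. From the downstream start on, Cdyl had 7.53 and 7.05 times the level per length of the upstream stretch in siEsrrb, against 9.70 and 9.55 times in siCtrl. The annotated gene Gm22126 overlaps Cdyl and has no row of its own.

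**Figure D2:**
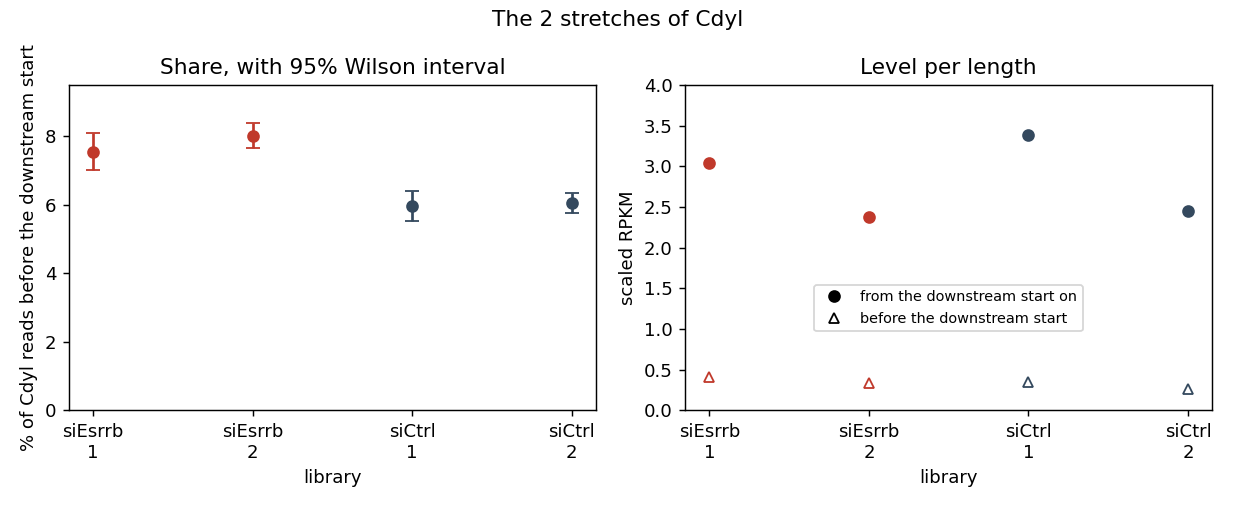
The left panel plots the percentage of all Cdyl reads that fall before the downstream start in each library, with 95% Wilson intervals, and the right panel the scaled RPKM of Cdyl from that start on (filled circles) and before it (open triangles). The siEsrrb shares of 7.55% and 8.01% sit above the siCtrl shares of 5.96% and 6.05%, while the levels of both stretches overlap between groups. Within each replicate number the level before the downstream start is higher in siEsrrb and the level from it on is lower.

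Dynlrb2, the annotated protein-coding gene nearest to Cdyl2 on one side, was close to undetected. It had 1 and 1 reads in siEsrrb, against 0 and 1 reads in siCtrl (NM_029297, 10901 bases). A floor of 3 reads per library corresponds to 0.0123 and 0.00445 RPKM in siEsrrb and 0.0111 and 0.00405 RPKM in siCtrl. All libraries were under their floor, so no fold change is given and a difference was not detectable at this depth.

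Cmc2, the nearest protein-coding gene on the other side, had 0.353 and 0.365 scaled RPKM in siEsrrb, against 0.429 and 0.403 in siCtrl. The groups did not overlap, with the siEsrrb libraries lower. It stood at 82.3% of control in replicate 1 (interval 69.4 to 97.5) and at 90.7% in replicate 2 (82.5 to 99.8), from 238 and 781 reads in siEsrrb and 332 and 970 in siCtrl. Under the expression minimum of the main test, it was fitted without the filter on low values, where its log2 fold change was -0.09 (SE 0.07; limma adjusted p 0.751). On recovered reads with voom it was -0.19. The annotated Cmc2 gene overlaps Cenpn and Atmin, but the counted model of 32752 bases (NM_026844) starts 304 bases from Cenpn and runs away from it. Without a stated use of strand, reads of a longer Cmc2 transcript in the overlap cannot be told apart from those of Cenpn and Atmin.

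Cenpn had 1.32 and 1.57 scaled RPKM in siEsrrb, against 1.50 and 1.62 in siCtrl (NM_028131). The groups overlapped, and the library of replicate 2 was the higher one in each group. The percentages of control were 87.6 in replicate 1 (interval 78.2 to 98.2) and 96.9 in replicate 2 (91.3 to 103). The fitted log2 fold change was -0.09 (SE 0.09; limma adjusted p 0.772), and without siEsrrb replicate 1 it was 0.0075.

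Atmin had 1.05 and 1.13 scaled RPKM in siEsrrb, against 1.33 and 1.36 in siCtrl (NM_177700). Its groups did not overlap, and the libraries within each group were close. The means were 1.09 ± 0.0605 in siEsrrb and 1.34 ± 0.0150 in siCtrl (SD, n = 2 each). It stood at 78.6% of control in replicate 1 (interval 68.7 to 90.0) and at 83.7% in replicate 2 (77.8 to 90.1), intervals that overlap. The fitted log2 fold change was -0.21 (SE 0.06), with an unadjusted limma p of 0.0283 and an adjusted p of 0.396. An unadjusted limma p under 0.05 was thus found for 2 of the 4 tested members, both lower. Over all tested genes 5.33% were lower and 5.92% higher at that level, and the adjusted test passed 0 of the 4 members. Of the 2, Cdyl2 reached the expression minimum largely through siCtrl. Cmc2, under that minimum, is not counted. For Atmin the unadjusted limma p was above 0.05 with RPKM as deposited (0.124) and without each of the 4 libraries in turn (0.0619 to 0.162).

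Of the 20 annotated symbols nearest to Cdyl2 (10 on either side), 7 had a row, and 4 of these are the members beside Cdyl2 described above. Gcsh, which encodes the H protein of the glycine cleavage system and lies beyond Atmin, had 1.25 and 1.26 scaled RPKM in siEsrrb, against 1.36 and 1.35 in siCtrl (log2 fold change -0.08, SE 0.06; limma adjusted p 0.647). Its groups did not overlap, but the percentages of control of 91.7 and 92.9 had counting intervals that include 100 in both replicates (78.5 to 107 and 85.2 to 101). The gene 1700030J22Rik, between Atmin and Gcsh, had 18 and 94 reads in siEsrrb, against 12 and 101 in siCtrl. The noncoding gene 4930563M20Rik, between Cdyl2 and Cmc2, had 3 and 11 reads in siEsrrb, against 2 and 7 in siCtrl. Both of these were far under the expression minimum.

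Set against the mean of Cmc2, Cenpn and Atmin in the same library, log2(scaled RPKM + 0.5) of Cdyl2 differed by -0.62 and -0.43 in siEsrrb, against 0.38 and 0.17 in siCtrl. Cdyl2 was thus below the mean of these neighbours in both siEsrrb libraries and above it in both controls. Cmc2, under the expression minimum, lowers that mean, so the order does not hold for each neighbour. In siCtrl, Cdyl2 (1.46 and 1.21 scaled RPKM) was below Cenpn (1.50 and 1.62) in both libraries and below Atmin (1.33 and 1.36) in replicate 2. In siEsrrb, Cdyl2 (0.371 and 0.562) was above Cmc2 (0.353 and 0.365). The group means were -0.53 ± 0.13 in siEsrrb and 0.27 ± 0.15 in siCtrl (SD, n = 2 each), a difference of -0.80, negative in both replicates. The two-sided exact permutation p was 0.333, the smallest possible, and it stayed at 0.333 when adjusted together with the comparison of Cdyl2 with Cdyl.

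**Figure D3:**
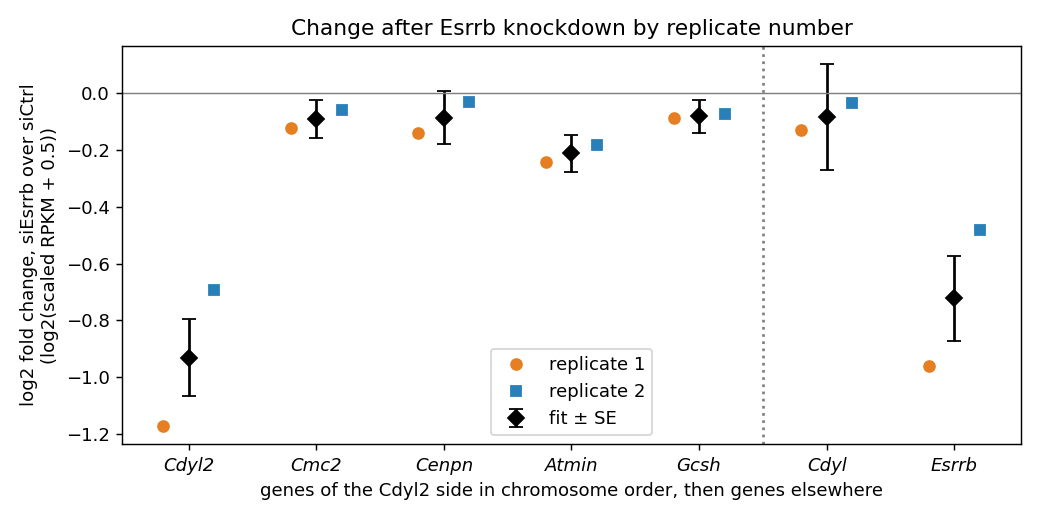
Log2 fold change of siEsrrb over siCtrl, on the log2(scaled RPKM + 0.5) scale, for Cdyl2 and the genes on its Cmc2 side, then for Cdyl and Esrrb. Diamonds are fitted values with their SE, circles replicate 1 and squares replicate 2, and Cdyl2 (-1.17 and -0.69) and Esrrb (-0.96 and -0.48) lie well below the neighbours, of which Atmin has the lowest fit (-0.21).

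Genes with the pattern most like that of Cdyl2 were sought among the tested genes by the Euclidean distance between log2(scaled RPKM + 0.5) values centred over the 4 libraries. The nearest was Manba, a lysosomal beta-mannosidase gene, at a distance of 0.0276. It had 0.451 and 0.685 scaled RPKM in siEsrrb, against 1.64 and 1.39 in siCtrl. Next came Fblim1, which encodes a filamin-binding LIM protein (distance 0.0651), the stem cell marker Zfp42 (0.0927), the imprint-maintaining zinc-finger gene Zfp57 (0.0948) and the connexin gene Gjc1 (0.107). Their fitted log2 fold changes ran from -0.93 for Zfp57 to -0.85 for Gjc1. Of 9757 genes, Esrrb ranked 25 (distance 0.226), Atmin 706, Cenpn 2143 and Cdyl 4176. With 4 libraries such a ranking is a description of these libraries.

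**Figure D4:**
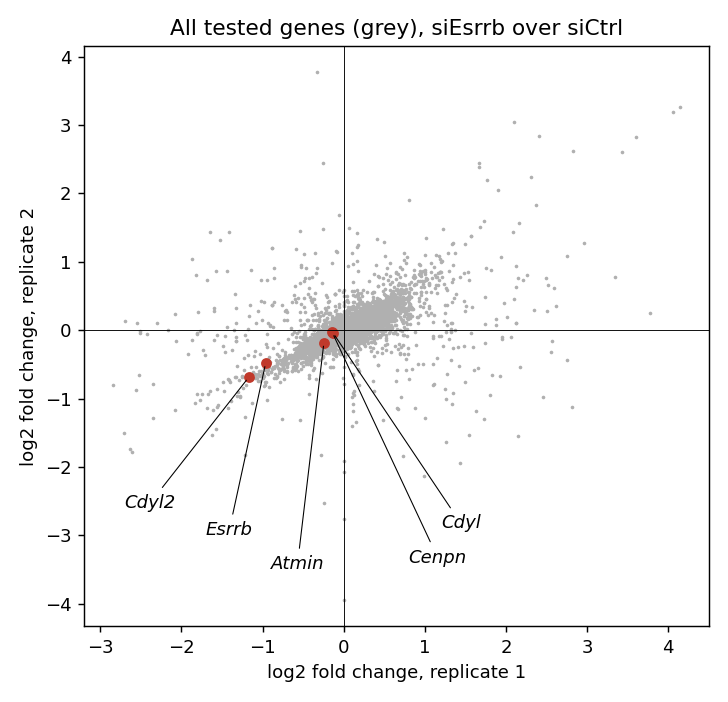
Log2 fold change of siEsrrb over siCtrl in replicate 1 (horizontal) and in replicate 2 (vertical) for the 9758 tested genes in grey, with Esrrb and the 4 tested members in red. Cdyl2 is low on both axes (-1.17 and -0.69), while Cdyl (-0.13 and -0.04) and Cenpn (-0.14 and -0.03) lie near the middle of the cloud and Atmin (-0.24 and -0.18) slightly below it.

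Among chromodomain genes, the family to which Cdyl2 and Cdyl belong, more were higher than lower in siEsrrb. Of 24 listed, 21 were tested and their median was 0.07 (log2 fold change); in 8 both siEsrrb values were above both siCtrl values, 2 were lower and 11 overlapped. The shares over all tested genes were 21.8% higher and 22% lower. Besides Cdyl2, those with the smallest unadjusted p were the remodeller gene Chd9 (log2 fold change 0.32, SE 0.07) and the H3K9 methyltransferase gene Suv39h1 (0.36, SE 0.09). Chd9 had 3.58 and 3.56 scaled RPKM in siEsrrb, against 2.72 and 2.79 in siCtrl, and Suv39h1 had 2.01 and 1.75 in siEsrrb, against 1.28 and 1.44 in siCtrl. The adjusted limma test passed 0 of the 21 members, and 4 had an unadjusted p under 0.05 (1 lower and 3 higher), against 5.33% lower and 5.92% higher over all tested genes.

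Genes of CDYL partners were mostly on the lower side. All 12 were tested; in 8 of them both siEsrrb values were below both siCtrl values, the opposite held for 0, against 22% and 21.8% of all tested genes, and the median was -0.17 (-0.23 in replicate 1 and -0.10 in replicate 2). Eed, the Polycomb repressive complex 2 subunit that binds methylated H3K27, had 4.30 and 4.05 scaled RPKM in siEsrrb, against 5.69 and 4.94 in siCtrl (log2 fold change -0.31, SE 0.11; limma adjusted p 0.423). The corepressor gene Rcor1 had -0.17 (SE 0.06) and the deacetylase gene Hdac1 -0.20 (SE 0.08). In the 4 members whose groups overlapped the fitted value was positive. These were Rest (0.20, SE 0.15), Wiz (0.13, SE 0.09), Ehmt2 (0.09, SE 0.18) and Ehmt1 (0.07, SE 0.10). Eed was the 1 member with an unadjusted p under 0.05, against 5.33% of all tested genes lower at that level, and the adjusted test passed 0 of the 12.

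Lists for the roles of Cenpn and Cmc2 had medians near that of all genes. Of 17 tested genes of CENP-A-associated centromere proteins, 4 were lower and 1 higher in both siEsrrb libraries (median -0.0093), with Cenpp at -0.28 (SE 0.09), Cenpi at -0.20 (SE 0.07) and Cenpw at 0.22 (SE 0.11). Of 14 tested genes of mitochondrial copper delivery and cytochrome c oxidase assembly, 3 were lower and 3 higher (median 0.01). Over all tested genes the shares were 22% lower and 21.8% higher. The assembly list stands near these shares, and so does the lower count of the centromere list. The 1 higher centromere gene of 17 is a smaller share than 21.8%. In the assembly list the copper chaperone gene Sco2 had 0.35 (SE 0.09), the haem farnesyltransferase gene Cox10 -0.17 (SE 0.08) and the copper chaperone gene Cox17 -0.23 (SE 0.12). The adjusted test passed 0 genes in either list, and 1 gene in each, Cenpp and Sco2, had an unadjusted limma p under 0.05, against 11.3% of all tested genes.

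Of 8 tested dynein light chain genes, 0 were lower and 2 higher in both siEsrrb libraries (median 0.09), against 22% lower and 21.8% higher over all tested genes. Dynll1, a light chain gene that ATMIN is known to activate, had 3.09 and 2.62 scaled RPKM in siEsrrb, against 2.36 and 2.52 in siCtrl (0.19, SE 0.10). Dynlt3 had 0.10 (SE 0.09) and Dynlt1a 0.15 (SE 0.13), the last with near-identical copies whose reads may be split among them. Of 7 genes around the kinase ATM, 2 were lower and 2 higher (median 0.02), against the same shares, and besides Atmin and Dynll1 the double-strand break repair gene Rad50 had 0.18 (SE 0.10). The adjusted limma test passed 0 genes of both lists. At an unadjusted p under 0.05 there were 0 dynein genes, while Atmin was the 1 gene in the ATM list, against 11.3% of all tested genes.

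None of the 7 stem cell markers passed the adjusted limma test. An unadjusted limma p under 0.05 was found for 2, both lower, against 5.33% of all tested genes lower and 5.92% higher. The 3 with the smallest unadjusted p are given here. Zfp42 had 8.75 and 10.2 scaled RPKM in siEsrrb, against 18.8 and 16.3 in siCtrl (log2 fold change -0.85, SE 0.15), and Nanog 3.76 and 4.80 in siEsrrb, against 5.63 and 6.57 in siCtrl (-0.47, SE 0.16). Pou5f1, which encodes Oct4, had 20.4 and 15.9 in siEsrrb, against 12.1 and 14.7 in siCtrl (0.42, SE 0.19). Of the 7 markers 2 were lower, 1 was higher and 4 overlapped, against 22% lower and 21.8% higher over all tested genes, and their part in the values of Cdyl2 was not tested.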

How the data were processed

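Nascent RNA was measured in 4 of the 60 samples of the series, and 56 were not analysed here. The authors deposited 1 RPKM value per RefSeq transcript and library for 34929 transcripts. Tools listed in the submitters' processing notes are CASAVA 1.4 and TopHat2, with Bowtie 1.1.1 and Bowtie2 for replicate 1 only, and the build is mm9. Nothing on the read counter or its strand setting is given in the sources used here. A table of the whole series equals the replicate 1 values at all 34929 transcripts and added no data. Titles gave groups and replicate numbers; the earlier pair has no number and was called replicate 1.

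Symbols came from the GRCm38.p6 RefSeq table (34631 transcripts matched). RPKM were multiplied by a median-of-ratios factor per library (0.925 to 1.09), giving scaled RPKM; log2(scaled RPKM + 0.5) went into limma 3.58.1 (R 4.3.3) with no replicate block, for the 9758 genes averaging 0.5 RPKM or more (Benjamini-Hochberg, two-sided). A trial of the fit on simulated reads had no effect of the replicate number in them, so it does not speak for these libraries. Whole reads, within 0.01 of a read in all 4 libraries for 99.9% of 31771 transcripts above 0, were recovered from the RPKM and served for depths, intervals and voom. Cmc2 and Dynlrb2 were under the minimum. Exact permutation tests of 2 against 2 libraries cannot go below 0.333.

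Members and lists were chosen with earlier results of these data known. Named genes are the members, Esrrb, annotated symbols within 10 of Cdyl2 that have a row, the 3 genes per list with the smallest unadjusted p, and the 5 genes most like Cdyl2. The CDYL partner genes whose groups overlapped were named as well. Alternatives were other pseudocounts, filters, scaling, transcript choice, a replicate block, voom and leaving out each library.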

Additional observations from a re-analysis of the deposited data

How the results depend on the processing

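The alternative that asked for a mean of at least 1 RPKM left out Cdyl2, whose mean was 0.910. Cdyl2 was lower in siEsrrb under all 12 other alternatives, with log2 fold changes from -1.51 to -0.67. It did not pass the adjusted limma test in 11 of them and passed in 1, voom on recovered reads with a replicate block (-1.51, adjusted p 3.38e-07; adjusted p 3.38e-07 to 0.741 over all alternatives). The same fit, chosen after seeing the data, passed Atmin (-0.28, adjusted p 0.0136; 0.0136 to 1.00 over all alternatives) and 3762 genes in all. No label pairs the replicate numbers. Deviations from the group means correlated between same-numbered libraries (r = 0.386 across 9758 genes), and the planned limma fit with a replicate block passed 0 genes (Cdyl2 adjusted p 0.116). Leaving out 1 library at a time gave 0 to 12 genes past the test (12 without siEsrrb replicate 2, 2 without siCtrl replicate 1), -1.07 to -0.79 for Cdyl2, -0.28 to 0.11 for Cdyl, -0.18 to 0.0075 for Cenpn, -0.25 to -0.17 for Atmin and -0.11 to -0.07 for Cmc2. Cdyl turned positive without siCtrl replicate 1 (0.11) and without siEsrrb replicate 2 (0.07), and Cenpn without siEsrrb replicate 1 (0.0075); the cause was not tested. The difference of Cdyl2 from Cdyl kept its sign in 8 of 8 alternatives (-1.26 to -0.55), as did that from the mean of Cmc2, Cenpn and Atmin (-1.17 to -0.58). The planned edgeR and DESeq2 fits were not run; voom on recovered reads took their place. Dynlrb2, with at most 1 read per library, gave no value, and depth limits Cmc2 and the weakly read neighbours.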
